A study of Mus musculus with 32 samples.

Results

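The comparison described here set mouse astrocyte cultures given lipopolysaccharide and light (LPS+PBM) against cultures given lipopolysaccharide alone (LPS), both at 24 h, with 4 RNA sequencing libraries a side. Genes entered when their mean reached 1 FPKM (fragments per kilobase of transcript, scaled to a common library size) in either group, which kept 12309 of the 21899 genes in the table. The gene just inside that limit had a mean of 1 FPKM in its higher group and the one just outside had 0.9975. Another 8517 genes were at 0 in all 8 libraries, and 1073 were above 0 but under the limit.

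Primary mouse astrocytes were sequenced in 32 libraries. With 4 libraries each, the 8 groups were untreated cultures (Control), light alone (PBM, photobiomodulation), LPS alone and the combination, harvested at 4 h or 24 h. By its title the study asks whether light lessens LPS-induced inflammation, through STAT5A and SOCS3. No source used here gives the wavelength and dose of the light, the dose of LPS, the order of the treatments, or the strain and age of the animals. Whether each replicate was a culture of its own is also not stated, and a p-value therefore measures only the spread between these libraries, which may be technical.

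Lipopolysaccharide, a component of the bacterial outer membrane, is sensed by Toll-like receptor 4, which switches on NF-kappaB and interferon signalling and with them cytokines, chemokines and acute-phase proteins. JAK kinases and STAT factors relay cytokine signals, and SOCS proteins such as SOCS3 and CISH are induced by STATs and hold that signalling back. Photobiomodulation is the use of red or near-infrared light on cells or tissue, and cytochrome c oxidase of the respiratory chain is the light acceptor most often proposed for it.

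Depth, inferred from the steps between low FPKM values, was low, at 132650 to 143900 fragments per library, and a single fragment added 6.95 to 7.54 FPKM to a gene of 1 kb. Between 10224 and 10457 genes per library were above 0. Libraries of the same group correlated at 0.777 to 0.786 and libraries of the 2 groups at 0.774 to 0.788 (Pearson's r across genes, 12 and 16 pairs). The ranges overlapped, but at this depth the values carry the noise of counting few fragments. They therefore cannot tell whether the groups stood apart as a whole. Mitochondrially encoded genes held 7.72% ± 0.348 of the summed FPKM in LPS and 8.47% ± 0.848 in LPS+PBM (SD, n = 4, two-sided exact permutation p = 0.2, where 0.0286 is the smallest that 4 against 4 allows).

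The label of the cells was checked against cell type markers. The 10 astrocyte markers summed to 163 to 218 FPKM in LPS and 129 to 190.0 in LPS+PBM. Among them the filament protein Gfap averaged 24.4 in LPS and 22.3 in LPS+PBM, the water channel Aqp4 29.4 in LPS and 21.5 in LPS+PBM, and the gap junction protein Gja1 41.2 in LPS and 43.1 in LPS+PBM, while S100b was at 0 in 7 of the 8 libraries. The 5 fibroblast and meningeal markers were far higher, summing to 1966 to 2219 FPKM in LPS and 1731 to 2021 in LPS+PBM, led by the collagen Col1a2 at 765 in LPS and 713 in LPS+PBM. The 7 endothelial and mural markers summed to 664 to 681 FPKM in LPS and 578 to 832 in LPS+PBM, nearly all of it smooth muscle actin (Acta2, 611 in LPS and 624 in LPS+PBM), with the endothelial Cldn5 at 0 in all 8. The 12 microglia markers summed to 278 to 353 FPKM in LPS and 192 to 393 in LPS+PBM. Sums were low for the 8 oligodendrocyte lineage markers, at 21.7 to 40.4 FPKM in LPS and 23.1 to 45.8 in LPS+PBM, with Mog and Sox10 at 0 throughout. The 6 neuron markers gave 65.7 to 116 FPKM in LPS and 56.7 to 72.5 in LPS+PBM, with Rbfox3, Snap25 and Syt1 at 0 throughout, and the 3 ependymal markers 0 to 5.6 FPKM in LPS and 2.6 to 2.9 in LPS+PBM, with Ccdc153 and Tmem212 at 0. Astrocyte markers were thus present in both groups, beside abundant collagen and actin transcripts and microglial ones. The microglia markers averaged a sum of 324.3 FPKM in LPS and 310.5 in LPS+PBM, above the 178.7 and 164.6 of the astrocyte markers. Sums over different markers do not give shares of cells, and the part of those other transcripts in the results was not tested.

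Of the 12309 genes, 1 passed the test (0.00812%), the epithelial gene Sprr2b, which fell in LPS+PBM (adjusted p under 0.05, limma with Benjamini-Hochberg adjustment). The unadjusted p was under 0.05 for 665 genes (5.4%). That share does not measure how far groups stood apart, since it was 5.45% for PBM against Control, where 14 genes passed. The fitted log2 difference between LPS+PBM and LPS was above 0 for 5979 genes and below 0 for 6330, with a median of -0.01. It is on the scale of log2(FPKM + 1), which understates the change of low genes. All 4 LPS+PBM libraries lay above all 4 LPS libraries for 148 genes (1.2%) and below them for 150 (1.22%). Leaving out LPS+PBM replicate 2 raised the number of genes called to 5, and leaving out replicate 1 raised it to 2. In the same fit 337 genes passed for LPS against Control (2.74%, 222 higher and 115 lower) and 337 for LPS+PBM against Control (2.74%, 210 higher and 127 lower), 2 comparisons that share their Control libraries with each other and their other libraries with the one described here.

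How small a difference could be seen depended on the level of the gene. The 95% interval of the difference lay within 1 log2 unit (2-fold) either way for 2296 genes (18.7%). Under 5 FPKM it did so for 0 of 3585 genes, from 10 to 50 FPKM for 1087 of 5041 (21.6%), and from 100 to 500 FPKM for 545 of 602 (90.5%). At 500 FPKM or more it did so for 83 of 90 genes (92.2%), whose differences ran from -0.42 to 0.6. For low genes the lack of a call therefore leaves a wide range of differences possible, and for abundant ones a narrow range.

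**Figure D1:**
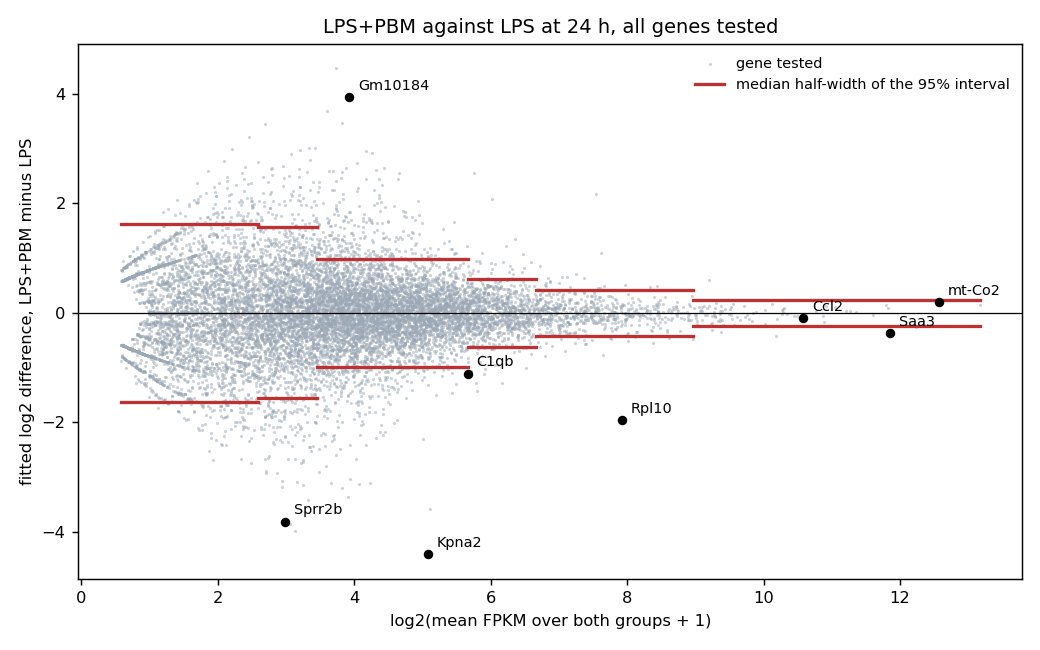
Fitted log2 difference between LPS+PBM and LPS at 24 h (y axis, positive where LPS+PBM was higher) against mean level on a log2(FPKM + 1) scale (x axis), with each point a gene tested. Red lines give the median half-width of the 95% interval in 6 ranges of level, 1.63 log2 units under 5 FPKM and 0.233 from 500 FPKM, and of the 8 genes labelled only Sprr2b passed the test.

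Of the inflammatory genes that LPS had raised, none described here passed the test between LPS+PBM and LPS. Saa3, an acute-phase protein of the serum amyloid A family, read 4005, 4507, 3592 and 4559 FPKM in LPS and 3129, 3088, 4098 and 2690.5 in LPS+PBM, against means of 3.15 in Control and 6.45 in PBM. Of the 4 LPS+PBM libraries, 3 lay below all 4 of LPS, and the difference of -0.37 ± 0.847 (SE) did not pass (adjusted p = 0.964). Ccl2, the main monocyte chemokine, read 1691, 1784, 1300.5 and 1552 in LPS and 1407, 1627, 1348 and 1500.2 in LPS+PBM, with 33.5 on average in Control. Its groups overlapped, at a difference of -0.10 ± 0.468 (adjusted p = 0.982). Ccl5, a T cell and monocyte chemokine, read 1753, 1479, 1477 and 1604 in LPS and 1019, 1505, 1903 and 1378 in LPS+PBM, so that LPS+PBM held both the lowest and the highest library.

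The cytokines gave the same picture. Il6 read 354, 399, 299 and 477 FPKM in LPS and 394, 439.5, 356 and 269 in LPS+PBM, a difference of -0.07 ± 0.924 (adjusted p = 0.999). Il1b read 331, 474, 249 and 393 in LPS and 266, 395, 350.1 and 252 in LPS+PBM (-0.18 ± 0.484, adjusted p = 0.969), and was listed at 0 in all Control libraries. Tnf read 64.2, 88.1, 81.5 and 71.2 in LPS and 73.5, 68.0, 63.9 and 53.2 in LPS+PBM (-0.23 ± 0.655, adjusted p = 0.97). In all 3 the libraries of the groups overlapped. Overlap was also seen for Lcn2, the siderophore-binding lipocalin 2, which averaged 349 ± 55.1 and 342 ± 78.6 FPKM in LPS and LPS+PBM (SD, n = 4), and for the interferon-induced chemokine Cxcl10, which averaged 616 ± 89.1 and 537 ± 150.0. Nos2, the inducible nitric oxide synthase, read 48.5, 55.1, 45.5 and 60.9 in LPS and 46.7, 45.1, 45.0 and 44.6 in LPS+PBM, and was listed at 0 in all Control and PBM libraries. Of its 4 LPS+PBM libraries, 3 lay just below all 4 of LPS.

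In the fit of all 16 libraries at 24 h, the error of such genes also carries the log-scale scatter of Control and PBM libraries at or near 0. With the 8 LPS and LPS+PBM libraries alone, 0 genes passed in limma and 574 had an unadjusted p under 0.05. There 16 of 31 cytokines and chemokines had a 95% interval within 1 log2 unit, against 3 in the 16-library fit. Over all 12309 genes tested, 2285 (18.6%) had such an interval in the 8-library fit and 2296 (18.7%) in the 16-library fit. In the 8-library fit the ratio of LPS+PBM to LPS was taken on the FPKM + 1 scale, with its 95% interval. The ratio was 0.934 (0.802 to 1.09) for Ccl2, 0.953 (0.732 to 1.24) for Il6 and 0.971 (0.755 to 1.25) for Lcn2. It was 0.882 (0.651 to 1.2) for Il1b, 0.85 (0.614 to 1.18) for Tnf and 0.871 (0.616 to 1.23) for Nos2. These intervals include equal levels and leave out a 2-fold fall. Intervals that leave out equal levels were also seen, each with an adjusted p of 0.91 in limma. The ratio was 0.775 (0.654 to 0.918) for Saa3, 0.64 (0.462 to 0.887) for the chemokine Cxcl5, 0.793 (0.638 to 0.985) for the cytokine Il1a and 1.64 (1.18 to 2.28) for the chemokine Cxcl2.

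A few LPS-raised genes separated the groups without passing. Cxcl5, a neutrophil chemokine, read 129, 124, 93.2 and 97.2 FPKM in LPS and 81.2, 53.0, 79.8 and 69.1 in LPS+PBM, all 4 lower (-0.64 ± 0.383, adjusted p = 0.907). Cxcl2, also a neutrophil chemokine, read 149, 91.4, 84.8 and 138 in LPS and 179.9, 238, 157 and 173 in LPS+PBM, all 4 higher (0.71 ± 0.71, adjusted p = 0.922). The related Cxcl1 overlapped, at means of 541 ± 67.9 and 495 ± 108. The complement protein C3 read 111, 122, 107 and 114 in LPS and 63.0, 73.2, 113 and 90.5 in LPS+PBM, where 3 light libraries lay below all LPS ones and the remaining one among them (-0.45 ± 0.508, adjusted p = 0.922). The cytokine Il1a averaged 364 ± 22.4 and 291 ± 56.9 and overlapped. Gfap, the astrocyte filament protein, which LPS lowered from 67.6 in Control, read 37.1, 16.4, 19.4 and 24.8 in LPS and 17.1, 23.7, 29.1 and 19.2 in LPS+PBM (adjusted p = 0.978).

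**Figure D2:**
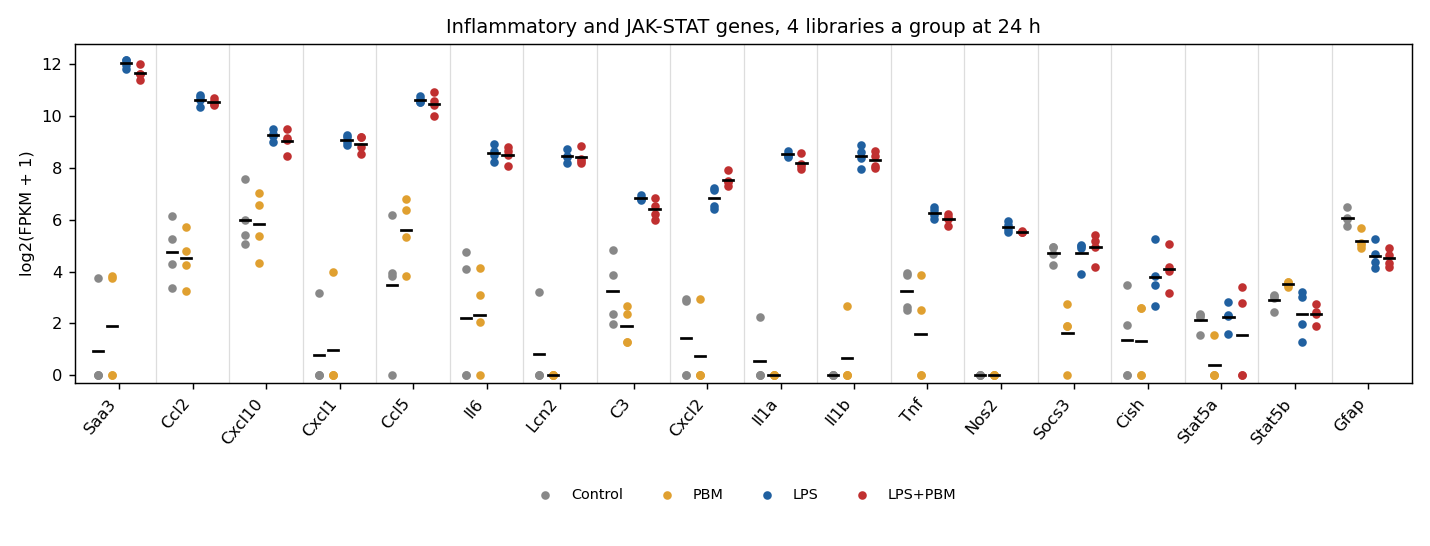
FPKM of 18 inflammatory, JAK-STAT and astrocyte genes on a log2(FPKM + 1) axis in the 4 groups at 24 h, with each dot a library and each black bar the mean of 4. LPS and LPS+PBM lie side by side for the cytokines and chemokines and above Control and PBM, and for none of the 18 did the difference between LPS+PBM and LPS pass the test.

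The genes of the study's title were low in these libraries. Stat5a, a transcription factor downstream of cytokine receptors, read 3.89, 4.00, 6.11 and 2.02 FPKM in LPS and 0, 0, 9.68 and 5.83 in LPS+PBM, whose libraries lay on both sides of the LPS ones. The difference was -0.71 ± 0.764 (95% interval -2.32 to 0.89, adjusted p = 0.922). Its close relative Stat5b, with which it shares 10.8% of its 50-base words, averaged 4.95 ± 3.3 and 4.27 ± 1.23. Socs3 read 30.2, 14.1, 28.8 and 31.4 in LPS and 35.4, 30.0, 41.0 and 17.1 in LPS+PBM, overlapping, a difference of 0.23 ± 0.499 (-0.82 to 1.28, adjusted p = 0.963). Cish, a STAT5 target, read 10.2, 13.2, 5.36 and 36.9 in LPS and 32.8, 17.1, 15.3 and 7.94 in LPS+PBM (-1.52 to 2.13, adjusted p = 0.972). A 2-fold difference lay inside the interval of each of Stat5a, Socs3 and Cish on at least 1 side, so at this depth neither a change nor its absence could be shown.

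At 4 h the same genes stood at other levels. Socs3 read 16.9, 21.8, 14.7 and 14.5 FPKM in LPS and 58.4, 32.1, 78.2 and 55.0 in LPS+PBM at 4 h, all 4 higher (1.61 ± 0.661, adjusted p = 0.572). Stat5a read 4.73, 39.6, 16.1 and 11.9 and 19.9, 41.4, 41.2 and 49.5, overlapping (1.3 ± 0.811, adjusted p = 0.756). At 4 h 0 of 13247 genes passed in limma, and 997 had an unadjusted p under 0.05. The light effect at 24 h minus that at 4 h was -1.39 ± 0.866 for Socs3 (adjusted p = 0.805) and -2.01 ± 1.12 for Stat5a (adjusted p = 0.784). Over the 12309 genes this difference between times passed for 0 (0%) in limma and for 0 in limma-voom on approximate fragments, with 831 under an unadjusted p of 0.05. It passed for 2 genes without LPS+PBM replicate 2 at 24 h and for 1 gene without replicate 1 of LPS+PBM or replicate 2 of LPS at 24 h, or without LPS replicate 1 or 3 or LPS+PBM replicate 1 or 2 at 4 h.

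Sprr2b encodes a small proline-rich protein that is cross-linked into the outer envelope of skin and other epithelial cells. It lies on the plus strand at chr3:92316620-92318085 (GRCm38). Its coding sequence is printed because it is the gene called. It spans chr3:92317449-92317742 (GENCODE M21), and capitals mark the 5 copies of a 15-base repeat, of which the coding sequence of the related Sprr2a1 holds 1. Of the Sprr2b coding bases, 0 lay in 50-base words shared with other genes, but 248 of the 784 bases of its transcript did. Sprr2b shares 14.1% of its words with Sprr2a1, and the part of reads that both could take was not tested.
Sprr2b: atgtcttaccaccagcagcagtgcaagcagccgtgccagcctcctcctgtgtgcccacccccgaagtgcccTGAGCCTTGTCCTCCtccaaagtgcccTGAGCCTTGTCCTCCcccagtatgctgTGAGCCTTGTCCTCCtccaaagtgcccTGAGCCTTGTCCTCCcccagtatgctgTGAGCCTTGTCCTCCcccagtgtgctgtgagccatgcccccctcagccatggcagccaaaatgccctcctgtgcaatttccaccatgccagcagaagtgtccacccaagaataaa
Sprr2b read 8.95, 18.4, 18.7 and 9.3 FPKM in LPS and was listed at 0 in all 4 LPS+PBM, all 4 Control and all 4 PBM libraries at 24 h. Its annotated transcript has 784 bases, so these levels stand for about 6 fragments over the 4 LPS libraries together. The fitted difference of -3.82 ± 0.462 (adjusted p = 0.00179) depends on the pseudocount and is no measure of fold. Its error is also low because the Control, PBM and LPS+PBM libraries, all at 0, add no scatter. With the 8 LPS and LPS+PBM libraries alone the error was 0.659. At 4 h Sprr2b read 36.6, 0, 19.2 and 0 in LPS and 19.0, 9.5, 9.43 and 8.95 in LPS+PBM, where the light group had reads in every library. The call was lost with a limit of 10 FPKM (adjusted p = 0.303), with the 8 libraries alone (0.216), without the 6 libraries that the table lists last, 3 of the 8 among them (0.149) and in limma-voom (0.277).

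The larger fitted differences that did not pass were mostly of this kind, with 1 group at or near 0. Abhd14b, a hydrolase-fold enzyme, read 4.32, 12.3, 14.5 and 15.2 FPKM in LPS and 0, 4.29, 0 and 0 in LPS+PBM (adjusted p = 0.268). Plscr2, of the phospholipid scramblase family, read 11.2, 27.2, 25.5 and 19.5 and then 6.07, 0, 3.73 and 0 (adjusted p = 0.269). Both were lower in all 4 light libraries. The same held for the GTPase-family gene Arl5c, the methyltransferase Eef1akmt2, the lysosome-positioning subunit Borcs8 and the transporter-family gene Slc66a2, with LPS means of 5.64, 18.8, 30.3 and 19.3 and LPS+PBM means of 0, 3.27, 5.34 and 4.68. Bcl2a1a, an anti-apoptotic BCL2 relative, read 25.7, 40.0, 21.1 and 22.4 in LPS and 9.19, 8.5, 0 and 0 in LPS+PBM (adjusted p = 0.464). It shares 67.7% of its 50-base words with Bcl2a1d, and the pair summed to 58.2, 52.2, 60.6 and 43.4 in LPS and 17.9, 65.0, 0 and 42.1 in LPS+PBM, where the groups overlapped.

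On the higher side Dguok, the mitochondrial deoxyguanosine kinase, was listed at 0 in all 4 LPS libraries and read 42.3, 18.9, 8.43 and 28.8 FPKM in LPS+PBM (adjusted p = 0.264), with 22.5 on average in Control. Rab4a, a GTPase of recycling endosomes, was listed at 0 in all 4 LPS libraries and read 10.6, 4.91, 18.0 and 10.2 in LPS+PBM (adjusted p = 0.376). Its Control mean at 24 h was 13.3. In the 4 h libraries Rab4a was again at 0 in all 4 of LPS and read 5.25, 10.5, 20.8 and 6.5 in LPS+PBM. That difference of 3.38 ± 0.585 did not pass in limma either (adjusted p = 0.19). At 24 h the protease inhibitor Serpinb1b, the mitochondrial GTPase Mtg2, the sorting nexin Snx32 and the ubiquitin ligase Obi1 were likewise at 0 in LPS, with means of 5.26, 8.95, 7.21 and 6.53 in LPS+PBM. Mmgt2, a membrane magnesium transporter, averaged 1.01 ± 2.01 and 21.3 ± 15.0, and the iron-sulfur assembly factor Ciao3 1.79 ± 2.07 and 16.4 ± 3.13. Among genes with reads on both sides, the F-box protein Fbxl20 averaged 6.72 ± 1.88 and 26.1 ± 13.8 and the matricellular protein Ccn3 7.57 ± 2.16 and 16.8 ± 5.13. None of these 10 passed.

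The most negative fitted difference belonged to a gene with a near-identical copy, and the part of reads that both could take was not tested. Kpna2, an importin that carries proteins into the nucleus, read 38.8, 42.2, 64.7 and 75.7 FPKM in LPS and 0, 40.7, 0 and 0 in LPS+PBM (-4.42 ± 0.826, adjusted p = 0.178). Gm10184, a gene with 1 coding exon where Kpna2 has 10, was at 0 in all 4 LPS libraries and at 49.2, 0, 31.6 and 32.9 in LPS+PBM (3.94 ± 0.876, adjusted p = 0.376). Their coding sequences are each 1587 bases long and differ by A696G and C741T (the Kpna2 base, the position counted from 1 at the start codon, the Gm10184 base). Coding bases 592 to 741 of both are printed because they hold both differences, in capitals. In Kpna2 they are spliced from chr11:106991258-106991487 and in Gm10184 they lie at chr17:89909576-89909725, both on the minus strand (GRCm38, GENCODE M21).
Kpna2: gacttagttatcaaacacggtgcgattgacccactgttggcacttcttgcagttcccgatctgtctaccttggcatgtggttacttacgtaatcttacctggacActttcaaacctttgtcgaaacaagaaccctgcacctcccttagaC
Gm10184: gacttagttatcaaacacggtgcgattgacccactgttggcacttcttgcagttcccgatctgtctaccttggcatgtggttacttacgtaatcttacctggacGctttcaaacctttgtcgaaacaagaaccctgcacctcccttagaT
Of the 50-base words of Kpna2, 91.0% also occur in Gm10184. The sum of both genes was 38.8, 42.2, 64.7 and 75.7 FPKM in LPS and 49.2, 40.7, 31.6 and 32.9 in LPS+PBM, where the groups overlapped. In each of the 32 libraries of the series exactly 1 of the pair was above 0, Kpna2 in 29 and Gm10184 in the 3 LPS+PBM libraries given above.

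Rpl10, a protein of the large ribosomal subunit, read 379, 302, 359 and 418 FPKM in LPS and 110.2, 23.0, 158 and 181 in LPS+PBM, all 4 lower (-1.96 ± 0.533, adjusted p = 0.796). It shares 57.2% of its 50-base words with its copy Rpl10-ps3, which averaged 131 ± 69.4 and 258 ± 87.1. Summed, the pair read 427, 491, 459.8 and 607 in LPS and 387, 393, 373 and 349 in LPS+PBM, still without overlap but closer together. Rpl12, of the same subunit, read 14.9, 20.1, 9.16 and 17.9 in LPS and was listed at 0 in all 4 LPS+PBM libraries (adjusted p = 0.483). It was also at 0 in 3 of the 4 Control and 1 of the 4 PBM libraries at 24 h. At 4 h it read 25.4, 0, 14.3 and 0 in LPS and 41.7, 9.53, 0 and 0 in LPS+PBM. Over its longest annotated transcript, of 2863 bases, 16.6% of its words were shared with 18 other genes.

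**Figure D3:**
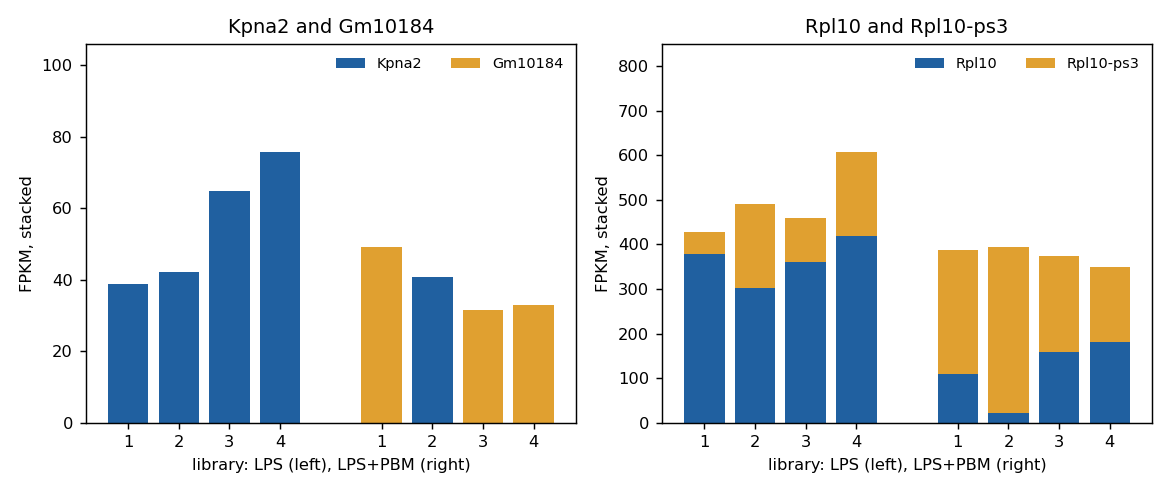
FPKM of Kpna2 with Gm10184 and of Rpl10 with Rpl10-ps3, stacked for each of the 8 libraries of LPS and LPS+PBM at 24 h. Each library shows Kpna2 or Gm10184 and never both, and the stacked heights of that pair, 31.6 to 75.7 FPKM, overlap between the groups.

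Gene lists were read against all genes, of which 48.6% had a difference above 0, and no member of the 38 lists passed the test. For signals, cytokines and chemokines had 12 of 31 above 0 (median -0.07), although 22 of the 31 had passed for LPS against Control. Their receptors had 8 of 22 above 0 (median -0.14), among them Ifngr2, a chain of the interferon gamma receptor, at 56.7 ± 29.8 and 24.6 ± 4.8 FPKM. For sensing, Toll-like receptor genes had 7 of 22 above 0 (median -0.12), with the adaptor Tab2 at 34.3 ± 10.1 and 52.4 ± 9.08 and the kinases Map3k8 at 6.35 ± 5.02 and 0.843 ± 1.69 and Irak4 at 5.28 ± 2.38 and 1.88 ± 3.76. For relay, NF-kappaB genes had 17 of 26 above 0 (median 0.10), with the subunit Rela at 32.4 ± 7.72 and 47.9 ± 9.8 and the kinase Ikbke at 40.3 ± 9.79 and 25.1 ± 14.1. JAK-STAT components had 10 of 23 above 0 (median -0.05), and the SOCS family and STAT5 targets 9 of 18 above 0 (median -0.01).

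Among effectors, the type I interferon response had 18 of 40 above 0 (median -0.02). Ifit1, which binds viral RNA, read 372, 375, 406 and 354 FPKM in LPS and 317, 317, 302 and 364 in LPS+PBM (-0.22 ± 0.14, 95% interval -0.51 to 0.08). Rtp4, another interferon-induced gene, was lower in all 4 light libraries at 122 ± 16.2 and 84.3 ± 17.0. Antigen presentation had 8 of 23 above 0 (median -0.15), with the peptide-loading chaperone Tapbp at 249 ± 52.8 and 203 ± 42.9, and complement 4 of 19 above 0 (median -0.23). Acute-phase and metal-handling genes had 8 of 16 above 0 (median 0.03). In that list ferritin heavy chain Fth1 read 5642, 5752, 4465 and 5001 in LPS and 3815, 5019.8, 4739 and 3976 in LPS+PBM, overlapping (-0.25 ± 0.11, adjusted p = 0.907), and metallothionein Mt1 averaged 105 ± 21.1 and 64.1 ± 9.48. Inflammatory enzymes had 9 of 15 above 0 (median 0.07) and inflammasome genes 7 of 13 above 0 (median 0.11).

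A list chosen on other libraries was that of genes raised by LPS at 4 h. It had 101 of 229 above 0 (median -0.04), or 44.1%, with 0 passing in limma and 5 under an unadjusted p of 0.05. In the fit of the 8 libraries alone, 146 of the 229 (63.8%) had a 95% interval within 1 log2 unit, and 15 had an unadjusted p under 0.05. Over all genes in that fit, 2285 of 12309 (18.6%) had such an interval and 574 had such a p. Genes lowered by LPS at 4 h had 30 of 62 above 0 (median -0.03).

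Among astrocyte lists, pan-reactive genes had 4 of 13 above 0 (median -0.18), A1 genes 4 of 13 above 0 (median -0.22) and A2 genes 6 of 11 above 0 (median 0.09). Timp1, a protease inhibitor that LPS raised, read 2009.8, 1966, 1831 and 2179.9 FPKM in LPS and 1808, 1682, 1967 and 1623 in LPS+PBM, overlapping (-0.18 ± 0.133, 95% interval -0.46 to 0.11). The A1 gene H2-T23, a class I molecule, averaged 138 ± 15.9 and 119 ± 14.4. Homeostatic astrocyte genes had 7 of 21 above 0 (median -0.38). In that list the lipoprotein Apoe read 563, 486, 320.2 and 426 in LPS and 235, 377, 472 and 246 in LPS+PBM, overlapping (-0.46 ± 0.212, adjusted p = 0.907), and the membrane protein Mlc1 averaged 27.0 ± 12.2 and 12.2 ± 5.82. The list's summed FPKM ran from 556 to 868 in LPS and from 404 to 742 in LPS+PBM.

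Microglial transcripts held a separated gene that did not pass. C1qb, a chain of complement C1q, read 70.9, 59.7, 74.2 and 67.0 FPKM in LPS and 27.7, 32.0, 25.7 and 40.0 in LPS+PBM, all 4 lower (-1.11 ± 0.306, 95% interval -1.75 to -0.47, unadjusted p = 0.00193, adjusted p = 0.818). Its partner chains overlapped, with C1qc at 21.0 ± 11.7 and 31.1 ± 10.4 and C1qa at 47.2 ± 27.2 and 46.1 ± 29.9. The Fc receptor Fcgr3 overlapped at 31.1 ± 10.4 and 10.6 ± 11.3. The lipid receptor Trem2 read 6.64, 0, 0 and 0 in LPS and 7.13, 6.59, 6.61 and 6.87 in LPS+PBM. Microglia markers had 8 of 22 above 0 (median -0.15), and 6 of the 22 had an unadjusted p under 0.05 in limma, in both directions. Over all genes tested, 665 of 12309 (5.4%) had such a p. In bulk RNA, fewer cells of a type and less RNA per cell cannot be told apart.

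Of the mitochondrially encoded genes, which include subunits of cytochrome c oxidase, the list had 11 of 13 above 0 (median 0.13). The oxidase subunit mt-Co1 read 8495, 9459.98, 8682 and 8219.8 FPKM in LPS and 9203, 10565, 10333 and 8558 in LPS+PBM, overlapping (0.15 ± 0.063, 95% interval 0.01 to 0.28, adjusted p = 0.907). The oxidase subunit mt-Co2 read 5789, 5965, 5456 and 5378 in LPS and 5633, 7075, 7562 and 5889 in LPS+PBM, where 2 light libraries were high and the others lay among the LPS ones (0.20 ± 0.081, adjusted p = 0.907). The complex I subunits mt-Nd1 and mt-Nd5 averaged 2329 ± 64.2 and 2399 ± 237 and 1586 ± 92.8 and 1556 ± 164, and the ATP synthase subunit mt-Atp8 485 ± 218 and 689.5 ± 111. Nuclear oxidase genes had 11 of 22 above 0 (median 0.00), with Cox7a2l at 52.0 ± 31.4 and 75.2 ± 8.8. Other nuclear respiratory genes had 33 of 66 above 0 (median 0.00), with the complex II subunit Sdhc at 48.4 ± 16.0 and 95.1 ± 38.4 and the complex I subunit Ndufa6, lower in all 4, at 57.9 ± 30.6 and 9.47 ± 11.6.

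Stress, growth and matrix lists held no call either. Antioxidant and NRF2 targets had 11 of 26 above 0 (median -0.07), with heme oxygenase Hmox1 at 371, 432, 505 and 442 FPKM in LPS and 709.99, 532, 449 and 490.5 in LPS+PBM (0.30 ± 0.145, adjusted p = 0.907) and the glutathione transferase Gsta4 at 15.3 ± 4.79 and 3.71 ± 4.29. Heat shock genes had 9 of 17 above 0 (median 0.02), the cochaperone Dnajb4 being higher in all 4 at 28.5 ± 5.68 and 43.9 ± 4.92. Lipid synthesis genes had 10 of 26 above 0 (median -0.10), with the sterol regulators Srebf2 and Insig1 higher in all 4 at 27.9 ± 6.18 and 43.7 ± 2.14 and 24.1 ± 2.2 and 38.0 ± 7.49. Growth factors had 15 of 25 above 0 (median 0.15), with the EGF receptor ligand Hbegf at 34.3 ± 9.95 and 53.5 ± 12.4. Extracellular matrix genes had 18 of 39 above 0 (median -0.02), with the collagen VI chains Col6a1 and Col6a2 at 133 ± 12.5 and 104 ± 14.6 and 51.4 ± 5.67 and 35.2 ± 4.76 and the proteoglycan Dcn at 422 ± 18.5 and 342 ± 57.0. Clock genes had 11 of 16 above 0 (median 0.13), with the transcription factor Dbp at 2.58 ± 5.15 and 17.0 ± 13.9.

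Cytosolic ribosomal proteins had 34 of 75 above 0 (median -0.03). In that list Rps7 and Rpl23a, both lower in all 4, averaged 317 ± 36.6 and 742 ± 57.5 FPKM in LPS and 234 ± 27.4 and 583 ± 27.4 in LPS+PBM. The elongation factor Eef1a1, the most precisely measured gene, read 1935, 2004, 2036 and 2142 in LPS and 2194, 2197, 2126 and 2249.9 in LPS+PBM, where 1 LPS library reached the light range (0.11 ± 0.049, 95% interval 0.01 to 0.22, adjusted p = 0.907). Other precisely measured genes had intervals that include 0, at -0.17 to 0.13 for the integrin Itgb1, -0.11 to 0.21 for the proteoglycan Bgn, -0.12 to 0.19 for the matrix protein Thbs1, -0.21 to 0.11 for ferritin light chain Ftl1, -0.26 to 0.03 for the protease Ctsd and -0.03 to 0.29 for the filament protein Vim.

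**Figure D4:**
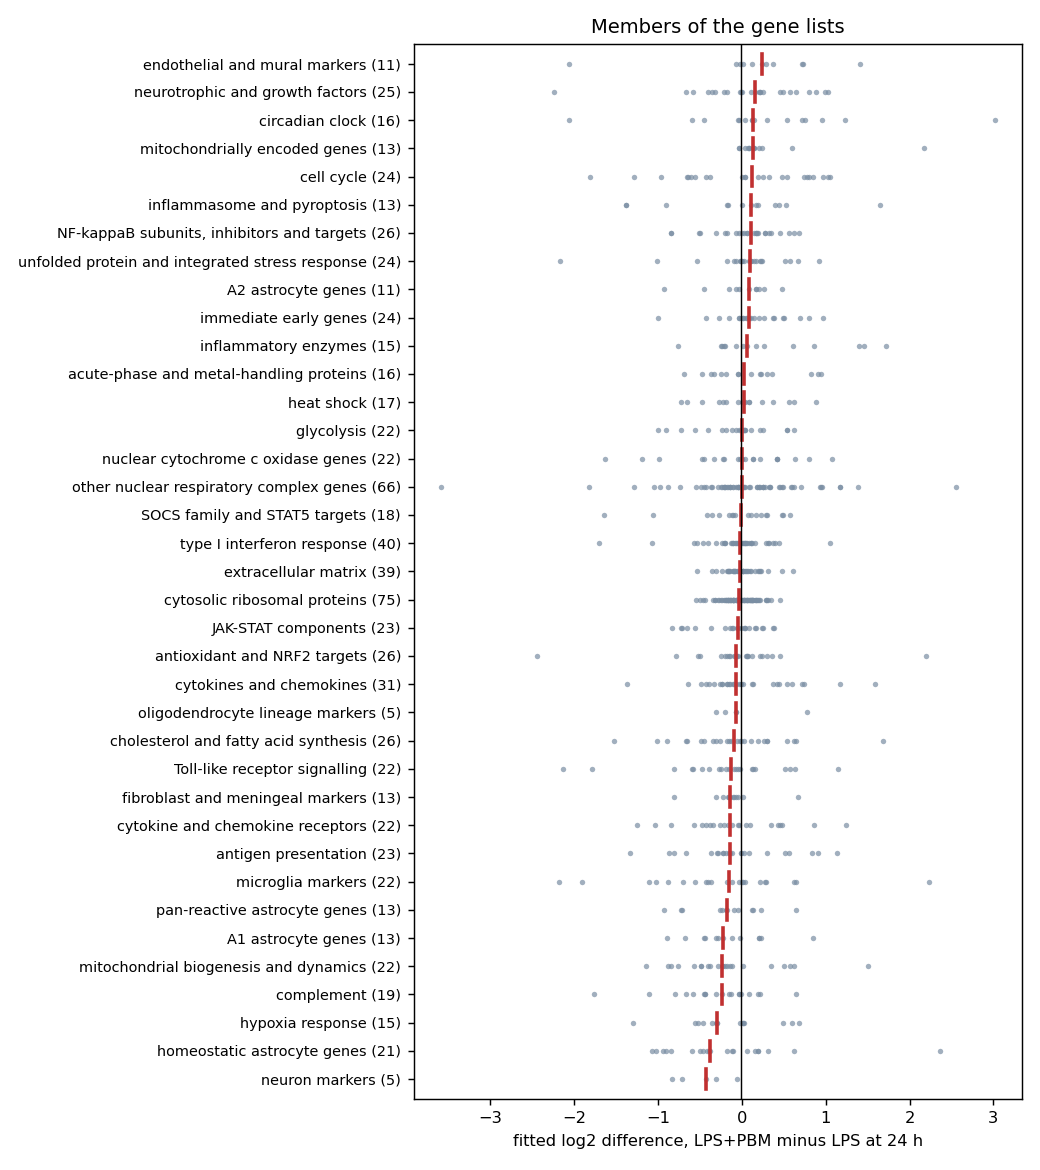
Fitted log2 difference between LPS+PBM and LPS at 24 h (x axis) for the members of 37 gene lists with at least 5 members tested (y axis, number tested in brackets), with each point a gene, the list's median in red and the median of all genes as a black line. Members lie on both sides of 0 in every list shown but that of the 5 neuron markers, and no member passed the test.

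More genes passed when the effect of light with LPS was set against its effect without LPS, a comparison of 16 libraries in which the PBM and Control libraries are separate from the 8 above. Immediate early genes encode proteins, mostly transcription factors, that cells make within minutes of a stimulus. Without LPS, light lowered 8 of 24 of them, with a list median of -1.51 where that of all genes was 0. In all, 14 of 12309 genes passed for PBM against Control (0.114%, 1 higher and 13 lower). With LPS, 0 of the 24 passed, 17 were above 0, and the median was 0.08. The difference between the light effects passed for 7 of 12309 genes (0.0569%). For Nr4a1, Fosb, Fos, Egr1, Junb and Ptgs2 the light effect, not the level of the gene, was higher with LPS than without it. The remaining one, Sprr2b, was at 0 in all Control and PBM libraries, so its value only repeats that between LPS+PBM and LPS.

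Egr1, a zinc finger transcription factor, read 278, 225, 257 and 291 FPKM in Control and 60.7, 55.9, 80.5 and 76.4 in PBM, without overlap. It read 196, 153, 128 and 157 in LPS and 188, 206, 214 and 205 in LPS+PBM, where 1 LPS library reached the light range. The light effect was -1.94 ± 0.161 without LPS and 0.37 ± 0.161 with it, and the difference between them was 2.31 ± 0.227 (95% interval 1.83 to 2.79, adjusted p = 8.1e-05). Egr1 passed under every alternative run, while each of the other 6 was lost under at least 1.

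Nr4a1, an orphan nuclear receptor, read 91.8, 79.0, 103 and 108 FPKM in Control and 0, 0, 5.92 and 8.45 in PBM, against 45.3, 61.2, 50.4 and 53.0 in LPS and 48.6, 78.7, 87.4 and 87.9 in LPS+PBM. The light effects differed by 5.56 ± 0.797 (adjusted p = 0.00637). The AP-1 subunit Fosb averaged 124 ± 31.4 in Control and 15.9 ± 6.41 in PBM, and 85.3 ± 22.1 and 87.1 ± 28.0 in LPS and LPS+PBM (2.95 ± 0.456, adjusted p = 0.0129). Fos averaged 341 ± 43.3, 70.6 ± 28.4 and 183 ± 32.7 and 184 ± 62.3 in the same order (2.31 ± 0.382, adjusted p = 0.0248), and Junb 148 ± 25.6, 35.5 ± 7.98 and 171 ± 38.8 and 153 ± 36.9 (1.88 ± 0.317, adjusted p = 0.0258). In these 4 genes every PBM library lay below every library of the other 3 groups. For Nr4a1 and Fos all 4 LPS libraries also lay below all 4 of Control.

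Ptgs2, the inducible cyclooxygenase, is both quickly induced and an LPS target. It read 235, 239, 214 and 239 FPKM in Control, 108, 99.9, 120.1 and 132 in PBM, 687, 676, 639.8 and 819 in LPS and 798, 835, 729 and 787 in LPS+PBM. The light effect was -1.01 ± 0.111 without LPS and 0.16 ± 0.111 with it, a difference of 1.17 ± 0.157 (adjusted p = 0.00369). Socs3 fell with light alone, from 25.5 ± 5.62 to 2.8 ± 2.35 (-3.06 ± 0.499, adjusted p = 0.0102), but the difference between its light effects, 3.29 ± 0.705, did not pass (adjusted p = 0.215). The transcription factors Bhlhe40 (2.75 ± 0.506, adjusted p = 0.0546) and Klf2 (2.79 ± 0.616, adjusted p = 0.226) did not pass. With the 6 libraries listed last left out, Egr1 alone passed. Leaving out LPS+PBM replicate 3 left 3 genes, and leaving out LPS replicate 2 or 3 or PBM replicate 3 left 4.

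**Figure D5:**
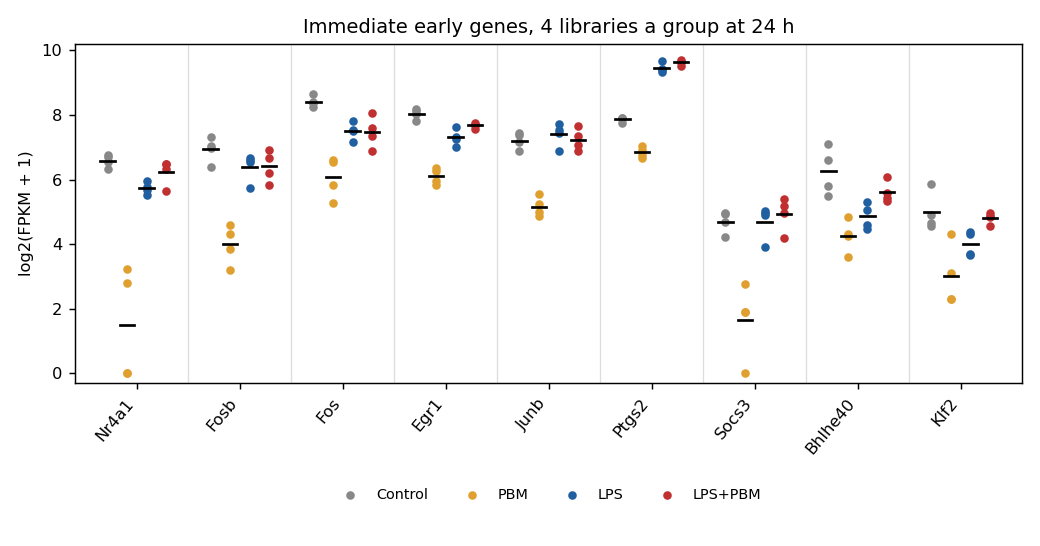
FPKM of 9 early-response genes on a log2(FPKM + 1) axis in Control, PBM, LPS and LPS+PBM at 24 h, with each dot a library and each black bar the mean of 4. The mean of PBM alone is the lowest of the 4 groups for each gene, and the difference between the light effects passed for Nr4a1, Fosb, Fos, Egr1, Junb and Ptgs2.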

How the data were processed

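The deposited table gives FPKM per gene in 32 libraries. Per the submitters' processing notes, the tools named, with no order, were StringTie 1.3.1, RSEM, HISAT2, fastp 0.18.0 and Bowtie2 2.2.8; whether counting used strand is not given in the sources used here. Depth was inferred by matching low FPKM values to whole fragments (91.95 to 94.43% of values within 0.05 of a whole number in the 8 libraries). log2(FPKM + 1) values of the 16 libraries at 24 h were fitted together in limma 3.58.1 (R 4.3.3, trended and robust variance, Benjamini-Hochberg adjustment over 12309 genes, threshold 0.05), with all 32 libraries for the difference between times. The fit was tested on simulated data in which only genes of at least 50 FPKM were changed. How well it finds changes in lower genes such as Sprr2b was therefore not tested. Gene IDs (21806, or 99.58%) were matched to GENCODE M21 on GRCm38, from which words of 50 bases shared between genes were counted.

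The genes and lists were chosen with earlier results of these data known. Genes named were 13 from the study's title and field, the 10 largest or smallest-p differences in each direction among non-overlapping genes of at least 5 FPKM, up to 4 members of each list by smallest p, those called in the difference between light effects, and the 10 most precise genes of at least 100 FPKM. Saa3, Ccl5, Cxcl1, Cxcl2, Il1a, C1qa, Kpna2, Gm10184, Rpl10, Rpl10-ps3 and Bcl2a1d were chosen after their values were seen. Results for 2 genes that the rule names are not reported here.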

Additional observations from a re-analysis of the deposited data

Results flagged for a closer look

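In 14 of 212 groups of 4 libraries checked (6.6%), 1 library was flagged as far from the other 3. That was 8 times in LPS and 6 times in LPS+PBM. Chance flags about 1 in 20 groups of normally distributed values, a rate that does not hold for groups with 3 libraries at 0. Such a group is flagged whatever its remaining library reads. This was the case for Mmgt2, Trem2 and Dbp in LPS and for Kpna2, Abhd14b, Map3k8 and Irak4 in LPS+PBM. In LPS the library apart was the highest for Arl5c (8.77 FPKM), Mmgt2 (4.02), Trem2 (6.64) and Dbp (10.3), and the lowest for mt-Nd1 (2233), Socs3 (14.1), C1qa (6.74) and Fosb (52.4). In LPS+PBM it was the highest for Kpna2 (40.7), Abhd14b (4.29), Serpinb1b (8.21), Map3k8 (3.37) and Irak4 (7.51), and the lowest for Snx32 (4.1).

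The difference between the light effects with and without LPS passed its own test in limma for 7 genes. The log2 difference between the effects was 2.31 for Egr1, 1.17 for Ptgs2, 5.56 for Nr4a1, 2.95 for Fosb, 2.31 for Fos, 1.88 for Junb and -3.82 for Sprr2b. Sprr2b was at 0 in all Control and PBM libraries, so its value only repeats that between LPS+PBM and LPS.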

How the results depend on the processing

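The number of genes called between LPS+PBM and LPS at 24 h was 1. It was 0 with a limit of 10 FPKM, 0 with the 8 libraries alone and 0 without the 6 libraries listed last in the table, which no label calls a batch (LPS replicates 2 and 4, LPS+PBM replicate 1, 1 PBM library at 24 h and 2 libraries at 4 h). It was 4 with all 32 libraries in the fit (Gm10184, Kpna2, Rab4a and Sprr2b) and 4 in limma-voom (Dguok, Kpna2, Mmgt2 and Rpl12, so 0 shared with the 1 called). Leaving out 1 library at a time gave 1 to 5. For the difference between light effects, 7 genes passed, against 4 with the replicate number as a block, 1 without the 6 libraries listed last, and 3 to 8 leaving out 1 library at a time. For the difference between times the number was 0, against 4 without the 6 libraries listed last (Fpr2, Lsm7, Omp and Sprr2b) and 0 to 2 leaving out 1 library at a time. The causes were not tested.

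Residuals of same-numbered libraries correlated at -0.016 to 0.029 over 24 pairs, and those of different-numbered ones at -0.027 to 0.03 over 72 pairs. At this depth residuals carry counting noise, so these values cannot tell whether replicate numbers pair the libraries. With the replicate block 1 gene was called between LPS+PBM and LPS. In the difference between light effects the block ended the calls of Fos, Junb and Sprr2b. No value changed direction past the threshold. Over the named genes and all alternatives, 1948 values stayed within the set limits, 67 moved, 10 came to pass and 52 ceased to pass. The voom fit and the leaving out of the libraries listed last, of Control and PBM libraries and of 4 h libraries were chosen after seeing the data. Depth limits low genes most, since 3 fragments on 1 kb are worth 20.9 to 22.6 FPKM.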
